A study of Homo sapiens with 96 samples.

Results

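Mutually exclusive exons (MXE) whose lengths differ by a multiple of 3 bases, 0 included, were followed in poly(A)-RNA seq of the established human cell line A549, which derives from a lung adenocarcinoma. Exchange of such exons leaves the downstream reading frame as it was, provided that both are translated, and they are called same-frame MXE here. They were chosen by length alone, with no measured value. The rule took 19636 of 52686 distinct MXE rows (37.3%) in 8 rMATS tables, that is 14966 of 40299 exon pairs in 6251 of the 8818 genes with an MXE row. Of these pairs, 493 in 385 genes had exons of equal length. One exon pair could appear in several rows with other flanking exons (11470 pairs had 1 row and the most was 19), so rows of a pair share reads. The median length was 115 bases for both the exon nearer the 5′ end of the transcript (the 5′ exon) and the other one (the 3′ exon).

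Mutually exclusive splicing keeps exactly one exon of a neighbouring pair in the mature mRNA. Such pairs often arose by exon duplication, so a switch exchanges a stretch of protein for a related one and leaves the rest intact. Well-known examples are the M1 and M2 exons of pyruvate kinase PKM, the alternative exons of the tropomyosins, and the IIIb and IIIc exons of the fibroblast growth factor receptors.

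The data cover 10 groups of 3 libraries each. Treatment was with 1 µM GSK591, which inhibits PRMT5, the main type II protein arginine methyltransferase (PRMT), or with 1 µM MS023, an inhibitor of the Type I enzymes. Single inhibitors were given for 2, 4 or 7 days, and both together (co-treatment, each at 1 µM) for 2 or 4 days. Control cells had received 0.01% DMSO for 4 or 7 days. The 2-day inhibitor groups were set against DMSO of 4 days, and the control of the 7-day tables was taken to be DMSO of 7 days, the only control labelled for that day. Comparisons of the same day, and those of 2 and 4 days, thus share DMSO libraries. A difference of a 2-day group from DMSO cannot be told apart from a difference in day, and effects at 2 and 4 days were not compared by a test. All groups came from 1 cell line and nothing states that the 3 libraries of a group were separate cultures, so the spread between libraries may be technical. P-values rest on a dispersion moderated over all MXE of a comparison, not on the spread of a single MXE. An MXE whose own libraries vary widely can therefore still have a small p-value. Libraries are called a, b and c by their place in the tables. Each library held 16689071 to 25641768 reads on MXE rows, a read being counted again in each overlapping row. Of 10 A549 marker genes fixed for a check, 9 had rows in the tables (KRT19 had none, and EPCAM reached at most 217 reads), whereas 0 of 6 markers of leukocytes, fibroblasts and endothelium had any.

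To show how alike the alternative exons are, both exons of 5 pairs on which the results turn are given here from GRCh37 (hg19), 5′ to 3′ on the strand of the gene, with capitals for bases that had no identical partner in the alignment of the 2 exons. TPM2 moved in opposite directions with the 2 inhibitors, PKM moved with each of them and further with both, and CALU and U2AF1 moved with GSK591. H2AFY was called with GSK591 at 4 and 7 days but not at 2 days. In each of them both exons are annotated as coding.
TPM2 5′ exon, chr9:35685061-35685136, minus strand: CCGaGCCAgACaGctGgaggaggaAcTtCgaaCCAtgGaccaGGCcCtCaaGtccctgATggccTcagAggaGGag
TPM2 3′ exon, chr9:35684729-35684804, minus strand: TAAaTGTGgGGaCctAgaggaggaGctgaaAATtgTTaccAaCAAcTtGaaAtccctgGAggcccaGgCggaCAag
PKM 5′ exon, chr15:72495363-72495529, minus strand: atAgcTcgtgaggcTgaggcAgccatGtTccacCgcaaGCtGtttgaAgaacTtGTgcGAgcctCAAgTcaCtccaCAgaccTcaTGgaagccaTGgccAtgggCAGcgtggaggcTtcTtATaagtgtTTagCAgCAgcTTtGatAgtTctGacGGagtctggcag
PKM 3′ exon, chr15:72494795-72494961, minus strand: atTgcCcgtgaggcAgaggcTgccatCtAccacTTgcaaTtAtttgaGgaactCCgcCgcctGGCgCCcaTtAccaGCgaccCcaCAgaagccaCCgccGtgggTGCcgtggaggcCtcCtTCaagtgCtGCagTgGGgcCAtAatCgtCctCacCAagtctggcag
CALU 5′ exon, chr7:128394316-128394509, plus strand: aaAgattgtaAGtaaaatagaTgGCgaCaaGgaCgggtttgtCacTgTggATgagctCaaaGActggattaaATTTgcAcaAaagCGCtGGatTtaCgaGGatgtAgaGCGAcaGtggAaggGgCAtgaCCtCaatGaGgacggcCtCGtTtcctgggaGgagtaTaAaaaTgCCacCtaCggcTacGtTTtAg
CALU 3′ exon, chr7:128394583-128394776, plus strand: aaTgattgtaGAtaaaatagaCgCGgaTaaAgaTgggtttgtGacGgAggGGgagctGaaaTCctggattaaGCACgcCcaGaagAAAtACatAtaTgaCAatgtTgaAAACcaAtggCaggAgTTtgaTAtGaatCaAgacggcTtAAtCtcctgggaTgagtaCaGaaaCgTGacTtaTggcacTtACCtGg
U2AF1 5′ exon, chr21:44521476-44521542, minus strand: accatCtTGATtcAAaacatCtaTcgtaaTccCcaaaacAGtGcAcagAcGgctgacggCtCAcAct
U2AF1 3′ exon, chr21:44520563-44520629, minus strand: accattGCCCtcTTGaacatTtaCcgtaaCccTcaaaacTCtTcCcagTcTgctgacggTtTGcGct
H2AFY 5′ exon, chr5:134688636-134688735, minus strand: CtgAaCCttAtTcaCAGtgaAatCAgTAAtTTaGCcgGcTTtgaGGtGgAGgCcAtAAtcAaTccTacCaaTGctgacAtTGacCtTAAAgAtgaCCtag
H2AFY 3′ exon, chr5:134686513-134686603, minus strand: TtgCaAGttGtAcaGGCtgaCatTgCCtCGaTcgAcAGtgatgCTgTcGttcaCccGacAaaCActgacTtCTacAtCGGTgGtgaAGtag
The TPM2 exons share 46 identical bases, the PKM exons 117, the CALU exons 130, the U2AF1 exons 46 and the H2AFY exons 52. H2AFY exchanges exons that differ by 9 bases, and the other 4 pairs exchange exons of equal length.

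Few pairs of the tables were mutually exclusive in the annotation. In GENCODE, lifted to GRCh37, 518 pairs (3.46%) never stood together in a transcript, 14363 (96.0%) stood together in at least 1, and 85 were not annotated as exons. The share never together was 3.35% (848 of 25333) among MXE whose lengths differed by another amount, a similar share. The pairs never together held relatively more exons of equal length (47, or 9.07%, against 3.02% of pairs found together). Their equal-length exons had a median identity of 63.9%, against 55.6% for the pairs found together. An intervening intron under 200 bases was seen in 16.0% of the former and 7.64% of the latter. The lengths of both exons were themselves multiples of 3 in 52.2% of all members.

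Inclusion, Ψ, is given in percent as the share of the 5′ exon, with reads of both forms divided by their effective lengths, and ΔΨ in percentage points as the first named group minus the second. A positive ΔΨ means more use of the 5′ exon. The counts include reads within the exons, so a transcript that holds both exons adds reads to both forms. In DMSO-treated cells at 4 days, Ψ was between 40 and 60% for 5673 of 12306 measured pairs that stand together in a transcript (46.1%) but for 53 of 351 pairs that never do (15.1%). In contrast, Ψ was under 10% or over 90% for 18.4% of the former and 50.7% of the latter. Even coverage of both exons within 1 mRNA also gives a Ψ near the middle, and for pairs found together it cannot be told apart from a choice between the exons.

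An MXE was tested if no library in the comparison had fewer than 10 reads on it, and was called where the adjusted p over all MXE tested in that comparison was under 0.05. Of the 19636 rows, 18169 could be tested in at least 1 of the 8 comparisons with DMSO and 1467 were under the minimum in each. After GSK591, 156 of 8017 same-frame MXE were called at 2 days (1.95%, against 1.81% of all MXE tested), 605 of 8233 at 4 days (7.35%, against 7.25%) and 351 of 6732 at 7 days (5.21%, against 5.49%). After MS023 the counts were 81 of 8030 at 2 days (1.01%, against 0.956%), 134 of 7855 at 4 days (1.71%, against 1.4%) and 219 of 7091 at 7 days (3.09%, against 2.72%). Co-treatment gave 707 of 8560 at 2 days (8.26%, against 8.13%) and 818 of 8510 at 4 days (9.61%, against 9.58%). In each comparison the share was close to that of all MXE tested. The median size of ΔΨ was 6.49 to 11.4 points among the called members and 1.84 to 2.48 points among those tested.

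Calls toward the 5′ and toward the 3′ exon were counted apart. After GSK591, 91 members had a higher and 65 a lower Ψ at 2 days (0.938% and 0.867% of all MXE tested were called higher and lower), 401 and 204 at 4 days (4.83% and 2.42%) and 151 and 200 at 7 days (2.23% and 3.26%). After MS023 the numbers were 42 and 39 at 2 days (0.526% and 0.431%), 69 and 65 at 4 days (0.792% and 0.605%) and 54 and 165 at 7 days (0.739% and 1.98%). With co-treatment they were 401 and 306 at 2 days (4.6% and 3.53%) and 458 and 360 at 4 days (5.29% and 4.29%). Calls toward the 5′ exon were thus more numerous in all but the 7-day comparisons, among the members as among all MXE. The counts were lower with fewer libraries and with another test. Without any 1 of the 6 libraries the counts fell to 124 to 210 for GSK591 at 4 days, to 10 to 25 for MS023 at 4 days and to 223 to 446 for co-treatment at 4 days, and limma on log2 odds called 151, 9 and 369.

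**Figure D1:**
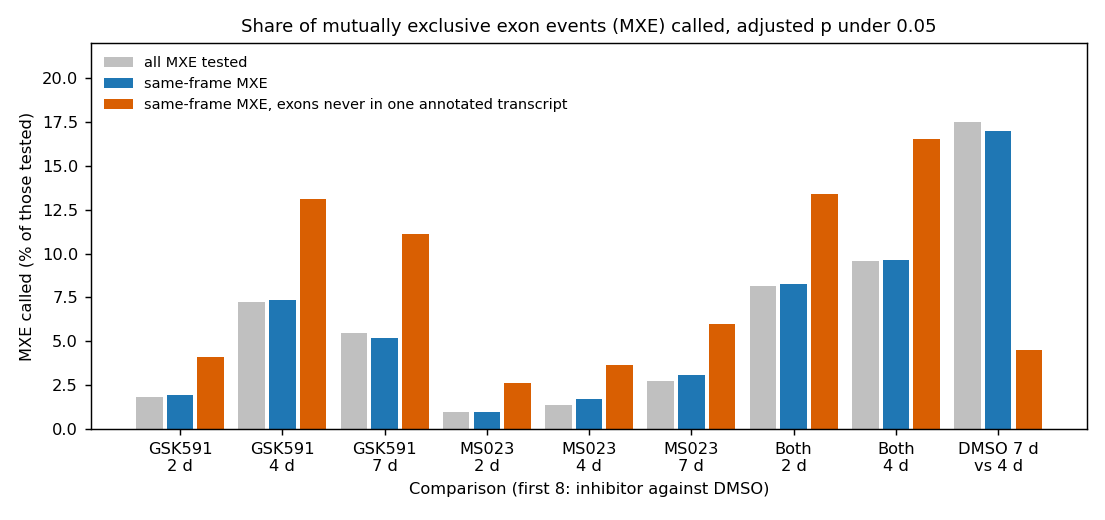
Percentage of MXE called (vertical axis) in the 8 comparisons of an inhibitor with DMSO and between DMSO of 7 and 4 days (horizontal axis), for all MXE tested (grey), same-frame MXE (blue) and same-frame MXE whose exons never stand together in an annotated transcript (orange). Grey and blue bars were close in each comparison, and orange bars were above them after inhibitors (13.1% against 7.25% of all MXE after GSK591 for 4 days) and below them between the DMSO groups (4.53% against 17.5%).

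The inhibitor groups were also compared with each other. Between GSK591 and MS023, 113 of 5653 members were called at 2 days (2.0%, against 1.71% of all MXE), 315 of 5632 at 4 days (5.59%, against 5.58%) and 154 of 4977 at 7 days (3.09%, against 3.1%). Co-treatment and GSK591 alone differed for 11 of 5828 members at 2 days (0.189%, against 0.17%) and 37 of 5953 at 4 days (0.622%, against 0.69%). At an unadjusted p under 0.05 in the same test, 635 and 910 differed. Dispersion was moderated separately in each comparison, so these counts cannot be set against those with DMSO. Few calls do not show that 2 groups were alike. Limma on log2 odds called 253 between GSK591 and MS023 at 4 days (315 in the main test) and 151 for GSK591 against DMSO (605). The largest number of calls was between the control groups, where 1207 of 7087 members differed between DMSO of 7 and 4 days (17.0%, against 17.5% of all MXE), 826 of them higher and 381 lower at 7 days (12.4% and 5.17% of all MXE were called higher and lower). Day and batch cannot be told apart in this contrast.

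The calls between DMSO groups were set against Ψ and annotation. Of these calls, 51.8% had a Ψ of 40 to 60% in DMSO and 4.81% a Ψ under 10% or over 90%, against 38.4% and 26.3% of the members tested. Among pairs never together, 11 of 243 rows were called between DMSO groups (4.53%, against 17.0% of all members). For the same class GSK591 gave 10 of 243 rows at 2 days (4.12%, against 1.95% of all members), 33 of 251 at 4 days (13.1%, against 7.35%) and 24 of 217 at 7 days (11.1%, against 5.21%). MS023 gave 7 of 267 (2.62%, against 1.01%), 10 of 272 (3.68%, against 1.71%) and 15 of 250 (6.0%, against 3.09%). Co-treatment gave 32 of 239 at 2 days (13.4%, against 8.26%) and 43 of 261 at 4 days (16.5%, against 9.61%). The median of the lowest count per library for this class was 128 reads in the comparison of GSK591 at 4 days, against 224 for all members. More of its pairs had a Ψ under 10% or over 90% in DMSO (50.7%, against 18.4% of pairs found together). Why its share called differed was not tested. Among members with at least 500 reads in each library, 14 of 49 rows never together (28.6%) and 281 of 2230 rows in all (12.6%) were called after GSK591 for 4 days, and 5 of 44 (11.4%) and 725 of 1921 (37.7%) between the DMSO groups. Called rows never together at this depth had a median size of ΔΨ of 1.95 points after GSK591 for 4 days, against 5.11 points for all called rows. After MS023 for 2 days the order was the other way (12.7 against 4.34 points), on only 4 called rows of 68. In every other comparison with DMSO the median was lower for rows never together. Over the rows tested at 4 days, the median size was 2.3, 2.32 and 2.87 points after GSK591, MS023 and co-treatment. For all members it was 2.28, 1.89 and 2.48 points.

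Genes with textbook mutually exclusive exons were followed as a list. Of 42 such genes listed, 37 had a same-frame MXE and 33 a tested pair. All tested pairs of these genes were counted, not only the textbook exons. Only 23 of the 109 pairs never stand together in a transcript. The others, many of them in CD44, stand together in at least 1 transcript or are not annotated. The list was made with earlier results of these data known, and pairs of 1 gene can share an exon, so its counts are a description. Taking 1 row per exon pair, GSK591 changed 14 of 75 listed pairs at 2 days, 24 of 76 at 4 days and 18 of 60 at 7 days (18.7%, 31.6% and 30.0%, against 1.78%, 7.21% and 5.1% of all same-frame pairs tested). MS023 changed 6 of 74, 6 of 68 and 9 of 63 (8.11%, 8.82% and 14.3%, against 0.993%, 1.75% and 3.18%). Co-treatment changed 27 of 71 at 2 days and 25 of 72 at 4 days (38.0% and 34.7%, against 7.63% and 9.13%). Limma on log2 odds called 2, 11 and 4 of the listed pairs after GSK591, 0 at each day after MS023, and 9 and 19 after co-treatment. Over all same-frame rows (6732 to 8560 tested), it called 20, 151 and 56 after GSK591 and 14, 9 and 2 after MS023. After co-treatment it called 221 and 369 of them. With so few limma calls after MS023, 0 among the listed pairs does not set the list apart. The listed pairs were deeper, with a median lowest count of 596 reads after MS023 for 4 days, against 273 over all same-frame pairs. With at least 500 reads in each library, 16.2%, 16.7% and 26.9% of them were called after MS023, against 2.42%, 3.67% and 7.93%. Between the DMSO groups, 6 of 65 listed pairs were called (9.23%, against 19.1%). The median size of ΔΨ over the listed pairs tested was 1.61 points after GSK591 for 4 days, against 2.51 points over all same-frame pairs. Of the 109 tested pairs of the list, 40 were called in at least 1 comparison with DMSO, and of the 23 that never stand together 13 were. The matching share over all same-frame pairs was not counted, so these 2 counts do not set the list apart.

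**Figure D2:**
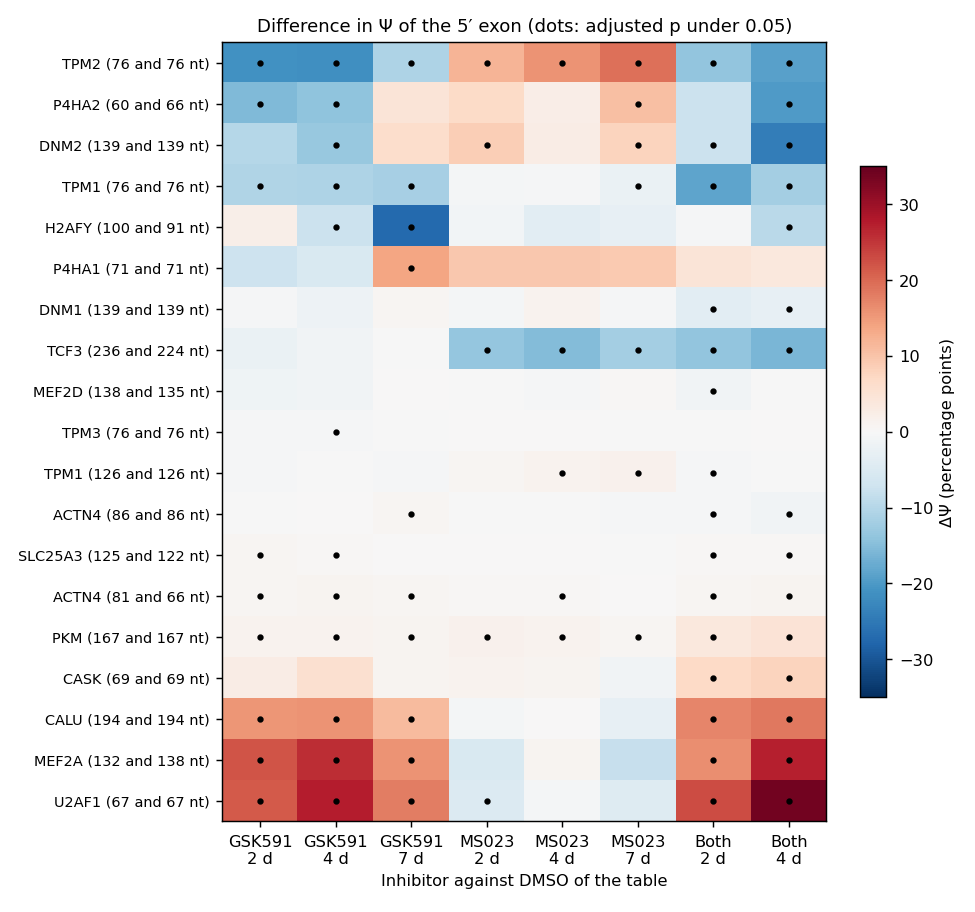
ΔΨ of the 5′ exon (colour, percentage points; red, more of the 5′ exon than in DMSO) for the 19 exon pairs of 17 textbook genes that were called at least once and have exons of equal length or exons never found together, in the 8 comparisons with DMSO (columns); dots mark adjusted p under 0.05 and grey would mark a comparison without a test. U2AF1, MEF2A and CALU were red under GSK591 and co-treatment (up to 33.8 points), TPM2 changed colour between GSK591 and MS023, and TCF3 was blue under MS023 and co-treatment.

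The tropomyosin gene TPM2 showed opposite changes with the 2 inhibitors. Tropomyosins are coiled-coil proteins that lie along actin filaments, and the 76-base exons at chr9:35685061-35685136 and chr9:35684729-35684804 code for alternative stretches of that rod. In DMSO the 5′ exon was used at 43.9, 48.2 and 48.9% at 4 days. The same day gave 25.2, 25.9 and 25.4% for GSK591 and 64.0, 58.4 and 65.5% for MS023. The 3 groups did not overlap. ΔΨ was -21.5 ± 1.58 points (SE; adjusted p = 1.64e-14) for GSK591 and 15.6 ± 2.66 points (adjusted p = 1.67e-07) for MS023. At 2 days ΔΨ was -21.2 ± 1.62 and 11.9 ± 1.64 points, and at 7 days -10.9 ± 1.47 and 19.4 ± 1.84 points, all of them called. The direct difference between GSK591 and MS023 was -33.2 ± 0.659, -37.2 ± 2.16 and -30.3 ± 1.15 points at 2, 4 and 7 days (adjusted p = 5.92e-06, 0.000202 and 4.9e-05). In co-treated cells the change followed GSK591, with 32.3, 33.9 and 33.4% at 2 days and 27.4, 27.6 and 28.7% at 4 days. At 2 days this was 7.4 ± 0.638 points above GSK591 alone (adjusted p = 0.0101), and at 4 days 2.39 ± 0.465 points above it, which did not pass (adjusted p = 0.139). The 3 calls for GSK591 and both for co-treatment held without any 1 library. That of MS023 at 2 days was lost without MS023 library a, b or c, and that at 4 days without MS023 library a or c or DMSO library b, with ΔΨ between 10.4 and 17.7 points.

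TPM1, which codes for a related tropomyosin, responded to GSK591 in its corresponding pair of 76-base exons (chr15:63353397-63353472 and chr15:63353912-63353987, 50 identical bases; 4 annotated transcripts hold both). The 5′ exon was used at 93.1, 93.0 and 92.1% in DMSO at 4 days, at 82.1, 81.8 and 81.5% with GSK591 and at 92.4, 92.7 and 91.9% with MS023. The GSK591 libraries lay below all DMSO and MS023 libraries, and those of MS023 overlapped with DMSO at this day. GSK591 gave -10.5 ± 0.835, -10.9 ± 0.376 and -11.6 ± 0.693 points at 2, 4 and 7 days (adjusted p = 6e-06, 5.42e-12 and 9.75e-10), and co-treatment gave -18.4 ± 0.734 and -11.8 ± 2.89 points at 2 and 4 days (adjusted p = 1.84e-15 and 8.36e-08). These 5 calls held without any 1 library. MS023 was also called at 7 days, in the same direction (-2.39 ± 0.364 points, adjusted p = 0.0236), but this call was lost without any 1 library (-2.71 to -2.09 points). A separate pair of 126-base exons of TPM1 stayed under 3% in all libraries, and the exon pair of 76 bases in TPM3 stayed above 98%, with called changes of at most 1.54 points.

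PKM codes for pyruvate kinase, which catalyses the last step of glycolysis, and its 5′ exon (chr15:72495363-72495529) gives the M1 form and its 3′ exon (chr15:72494795-72494961) the M2 form. Nearly all PKM mRNA held the M2 exon. The M1 exon was at 0.694, 0.835 and 0.621% in DMSO at 4 days, at 1.98, 1.9 and 1.78% with GSK591 and at 1.97, 1.93 and 2.02% with MS023. Co-treated cells had 4.32, 4.42 and 4.2% at 2 days and 5.82, 5.45 and 5.15% at 4 days. Every inhibitor library was above every DMSO library of its comparison, and co-treated libraries were above those of either inhibitor alone. The gain was 1.26 ± 0.14, 1.17 ± 0.0858 and 1.01 ± 0.193 points with GSK591 and 1.4 ± 0.0692, 1.26 ± 0.0683 and 0.679 ± 0.0793 points with MS023 at 2, 4 and 7 days, all of them called. GSK591 and MS023 differed by -0.0845 ± 0.0643 points at 4 days, which did not pass (adjusted p = 0.47). Co-treatment exceeded GSK591 alone by 2.33 ± 0.141 points at 2 days (adjusted p = 0.00587) and 3.59 ± 0.203 points at 4 days (adjusted p = 0.00033). The gain over DMSO was 3.59 ± 0.0901 and 4.76 ± 0.204 points. At least 26375 reads stood behind each library. Of the 8 calls against DMSO, that of MS023 at 7 days was lost without MS023 library c, with ΔΨ between 0.607 and 0.716 points over the libraries left out.

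**Figure D3:**
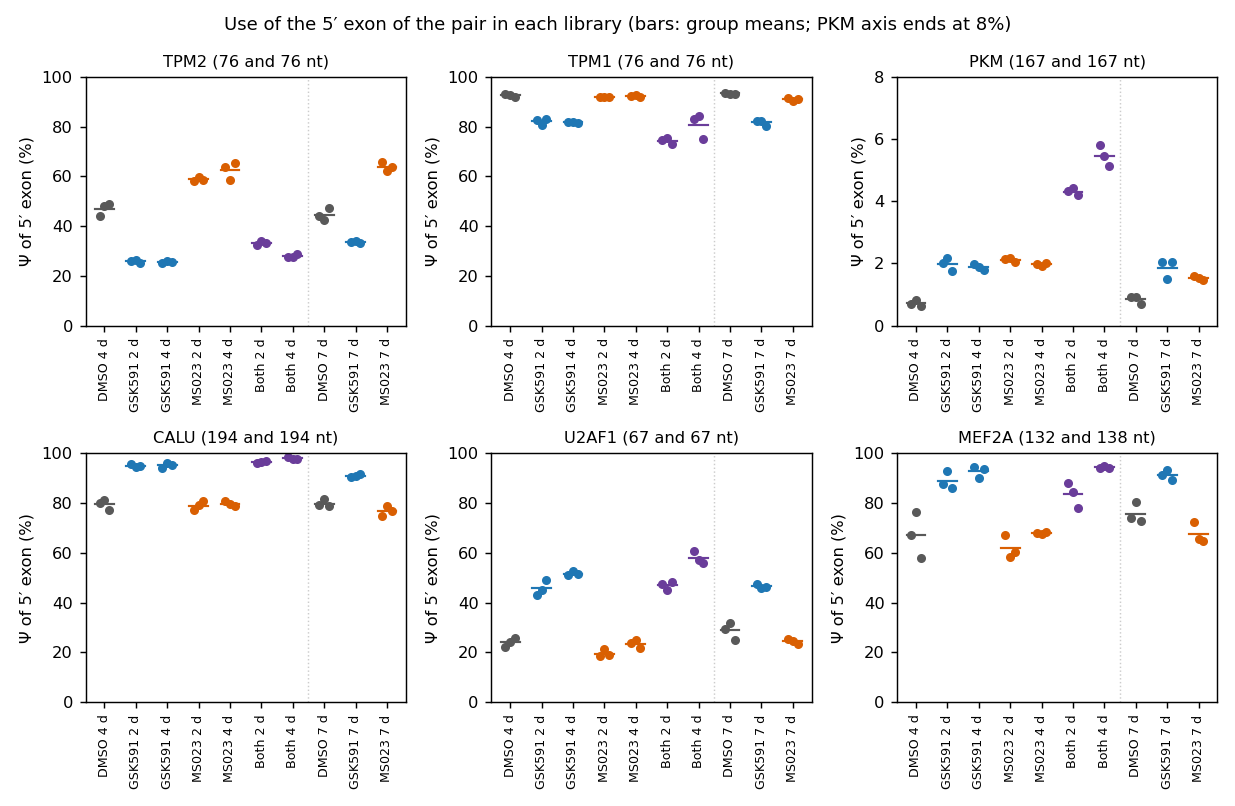
Ψ of the 5′ exon (vertical axis, %) in each library (points) and group mean (bars) for 6 exon pairs, by group (horizontal axis; grey DMSO, blue GSK591, orange MS023, purple both inhibitors; the 7-day groups stand to the right of the dotted line). The axis of PKM ends at 8% and the others at 100%. TPM2 libraries fell with GSK591 and rose with MS023, and co-treated PKM libraries (4.2 to 5.82%) were above all others.

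CALU, U2AF1 and MEF2A moved toward the 5′ exon with GSK591 and with co-treatment. CALU codes for calumenin, a calcium-binding protein of the secretory pathway, and its 194-base exons (chr7:128394316-128394509 and chr7:128394583-128394776) lie 73 bases apart and never occur together in the annotation. At 4 days its 5′ exon was at 80.1, 81.3 and 77.4% in DMSO, 94.2, 96.0 and 95.4% with GSK591, 80.9, 79.5 and 78.8% with MS023 and 98.4, 97.8 and 97.8% with both. The GSK591 and co-treated libraries were above all DMSO and MS023 libraries, and MS023 overlapped with DMSO. GSK591 gave 15.4 ± 1.18, 15.6 ± 1.25 and 11.1 ± 0.941 points at 2, 4 and 7 days, and co-treatment 17.0 ± 1.18 and 18.4 ± 1.17 points (adjusted p from 3.51e-06 to 4.17e-15, each call holding without any 1 library). GSK591 exceeded MS023 by 15.9 ± 1.05, 15.4 ± 0.787 and 14.1 ± 1.26 points. Between co-treatment and GSK591 alone the difference was 2.79 ± 0.544 points at 4 days and did not pass (adjusted p = 0.053).

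U2AF1 codes for the small subunit of the splicing factor U2AF, which reads the 3′ splice site, and exchanges exons of 67 bases (chr21:44521476-44521542 and chr21:44520563-44520629; 2 annotated transcripts hold both). The 5′ exon was at 22.2, 24.3 and 25.8% in DMSO at 4 days and at 50.9, 52.8 and 51.3% with GSK591. It was at 23.6, 24.9 and 21.8% with MS023 and at 60.6, 57.2 and 56.1% with both. MS023 overlapped with DMSO, and the GSK591 and co-treated groups did not. ΔΨ was 21.6 ± 2.12, 27.6 ± 1.2 and 17.9 ± 2.01 points with GSK591 at 2, 4 and 7 days and 22.7 ± 1.39 and 33.8 ± 1.71 points with co-treatment at 2 and 4 days (adjusted p = 3.42e-05, 3.42e-14, 4.62e-07, 5.32e-13 and 1.78e-14). The first of these was lost without DMSO library b, with 19.9 to 23.0 points over the libraries left out. MS023 at 2 days lowered the 5′ exon by -4.7 ± 1.34 points (adjusted p = 0.0437), a call that was lost without any 1 of its 6 libraries (-5.66 to -3.85 points).

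MEF2A codes for a transcription factor known from muscle, and its exons of 132 and 138 bases (chr15:100211528-100211659 and chr15:100211725-100211862) lie 65 bases apart and are never annotated together. The 5′ exon was at 67.1, 76.4 and 57.8% in DMSO at 4 days, at 94.6, 90.3 and 93.9% with GSK591 and at 94.3, 94.8 and 94.0% with both. MS023 libraries were at 68.1, 67.7 and 68.4%, within the range of DMSO. GSK591 gave 21.9 ± 5.75, 25.8 ± 5.52 and 15.7 ± 2.67 points at 2, 4 and 7 days (adjusted p = 0.0256, 4.38e-06 and 0.00164). Only 134 to 246 reads stood behind the shallowest library of each comparison. The call at 2 days was lost without any 1 library (17.2 to 26.5 points), that at 4 days without GSK591 library a or c (21.2 to 30.5 points) and that at 7 days without any but DMSO library b (14.2 to 18.1 points). GSK591 exceeded MS023 by 27.1 ± 3.36, 24.9 ± 1.33 and 23.7 ± 2.68 points at 2, 4 and 7 days (adjusted p = 0.0201, 0.00115 and 0.00871).

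The fibroblast growth factor receptors FGFR1 and FGFR3 exchange IIIb and IIIc exons of 151 and 145 bases, which code for part of the ligand-binding domain and set which growth factors are bound. At 4 days the IIIb exon of FGFR1 was at 5.12, 2.79 and 3.5% in DMSO, 28.2, 27.9 and 31.9% with GSK591, 5.92, 5.86 and 8.37% with MS023 and 26.9, 26.5 and 30.7% with both. GSK591 and co-treated libraries were above all others. ΔΨ was 11.6 ± 1.88, 25.5 ± 1.47 and 16.3 ± 1.79 points with GSK591 (adjusted p = 0.00242, 1.3e-10 and 2.39e-05) and 15.4 ± 2.09 and 24.2 ± 1.5 points with co-treatment (adjusted p = 7.92e-08 and 4.09e-10). The call at 2 days was lost without any library but GSK591 library a (10.0 to 13.0 points). FGFR3 had 18 to 45 reads in its shallowest libraries, and its IIIb exon rose by 60.1 ± 9.99 and 45.3 ± 6.69 points with GSK591 at 2 and 4 days (adjusted p = 0.0204 and 0.00198). The former was lost without any 1 library (54.2 to 69.6 points), and the latter without GSK591 library a or b or DMSO library a or b (40.3 to 50.8 points).

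DNM1L, the dynamin-related protein that divides mitochondria, has a pair of exons of 78 and 33 bases (chr12:32890799-32890876 and chr12:32891198-32891230), which 13 annotated transcripts hold together. Coverage of both exons and a choice between them thus cannot be told apart. At 4 days its 5′ exon was at 34.7, 37.6 and 32.8% in DMSO, 60.7, 62.7 and 61.9% with GSK591, 26.2, 29.0 and 27.0% with MS023 and 66.4, 78.5 and 78.9% with both. None of these groups overlapped with DMSO. GSK591 gave 26.8 ± 1.52 points at 4 days (adjusted p = 6.73e-06) and co-treatment 39.6 ± 4.35 points (adjusted p = 2e-07), both held without any 1 library, whereas the -7.62 ± 1.63 points of MS023 did not pass (adjusted p = 0.209).

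TCF3 moved with MS023 and with co-treatment but was not called with GSK591. TCF3 codes for the transcription factors E12 and E47, which differ in the DNA-binding helix-loop-helix region that its alternative exons encode. At 4 days the E12 exon was at 62.9, 64.6 and 56.2% in DMSO, 54.8, 62.8 and 62.1% with GSK591, 44.7, 43.0 and 50.1% with MS023 and 43.2, 48.0 and 44.2% with both. MS023 and co-treated libraries were below all DMSO libraries, and GSK591 overlapped with DMSO. MS023 gave -13.4 ± 3.26, -15.3 ± 3.34 and -12.0 ± 2.03 points at 2, 4 and 7 days (adjusted p = 0.0037, 0.000519 and 0.000408) and co-treatment -13.8 ± 3.36 and -16.1 ± 2.96 points (adjusted p = 0.00083 and 0.000206). GSK591 gave -2.2 ± 3.1, -1.35 ± 3.64 and -0.0561 ± 2.81 points (adjusted p = 0.754, 0.78 and 0.996). The direct difference of GSK591 and MS023 passed at 4 days (14.0 ± 3.35 points, adjusted p = 0.0423) and 7 days (12 ± 2.2 points, adjusted p = 0.0325) and not at 2 days (11.2 ± 2.65 points, adjusted p = 0.0853). With a library left out, MS023 lost its call without any 1 library at 2 days (-15.9 to -11.7 points), without any but DMSO library c at 4 days (-17.8 to -13.6 points) and without any but DMSO library c at 7 days (-13.7 to -10.4 points). The call of co-treatment was lost without any but DMSO library c at 2 days (-16.3 to -12.1 points) and without co-treated library a or c at 4 days (-18.6 to -14.4 points).

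In other pairs the effect of GSK591 differed between 7 and 4 days. H2AFY codes for the histone variant macroH2A1, with the 5′ exon (chr5:134688636-134688735) in macroH2A1.2 and the 3′ exon (chr5:134686513-134686603) in macroH2A1.1, the form whose macro domain binds ADP-ribose. With GSK591 the 5′ exon was at 82.7, 84.6 and 86.4% at 2 days, 74.3, 76.8 and 73.6% at 4 days and 53.7, 58.4 and 56.3% at 7 days. The DMSO libraries were at 83.4, 80.9 and 83.0% at 4 days and 84.0, 82.2 and 83.6% at 7 days and overlapped with each other. ΔΨ was 2.11 ± 1.33, -7.5 ± 1.25 and -27.1 ± 1.46 points at 2, 4 and 7 days (adjusted p = 0.567, 0.000135 and 3.42e-11). The difference between these effects at 7 and 4 days, an interaction, was -19.6 ± 1.92 points (adjusted p = 2.42e-05). Co-treatment was called at 4 days (-9.54 ± 1.33 points, adjusted p = 6.3e-06), which held without any 1 library. MS023 was not called at any day (-1.07 ± 0.832, -3.72 ± 0.905 and -2.76 ± 0.96 points). The call at 4 days was lost without GSK591 library a or c (-8.46 to -6.84 points), and the call at 7 days held without any 1 library.

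DNM2, the dynamin that pinches off endocytic vesicles, exchanges exons of 139 bases (chr19:10906737-10906875 and chr19:10908056-10908194, 103 identical bases), which 1 annotated transcript holds together. GSK591 brought the 5′ exon to 53.5, 49.2 and 57.6% at 4 days, from 66.9, 65.8 and 67.5% in DMSO, and co-treatment to 39.6, 44.6 and 43.3%. At 7 days GSK591 libraries were at 64.5, 63.4 and 58.8% and DMSO at 56.8, 53.4 and 58.1%. Groups did not overlap at either day but stood in opposite order. ΔΨ was -13.3 ± 2.46 points at 4 days (adjusted p = 7.05e-05) and 6.12 ± 2.24 points at 7 days (adjusted p = 0.08), and the interaction was 19.4 ± 3.33 points (adjusted p = 0.000924). DMSO itself differed by -10.6 ± 1.49 points between 7 and 4 days (adjusted p = 0.00546), and its part in the interaction was not tested. The call of GSK591 at 4 days was lost without GSK591 library a or DMSO library a or c (-15.4 to -11.2 points), and that of co-treatment (-24.2 ± 1.57 points, adjusted p = 8.66e-10) held without any 1 library. MS023 raised the 5′ exon by 8.53 ± 0.991 points at 2 days and 7.92 ± 1.6 points at 7 days (adjusted p = 0.0118 and 0.0168), and both calls were lost without any 1 library (6.56 to 9.3 points). Co-treatment at 2 days gave -7.5 ± 0.666 points (adjusted p = 0.00678), a call lost without any library but DMSO library b (-7.97 to -7.13 points).

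P4HA2, an alpha subunit of the prolyl hydroxylase that acts on collagen, had the same order of groups in exons of 60 and 66 bases (chr5:131534014-131534073 and chr5:131533899-131533964), 49 bases apart and never annotated together. Its 5′ exon was at 52.4, 46.7 and 50.2% with GSK591 at 4 days, against 61.5, 63.8 and 66.1% in DMSO, and at 62.0, 60.0 and 60.8% at 7 days, against 57.9, 55.0 and 56.5%. ΔΨ was -14.0 ± 2.11 points at 4 days (adjusted p = 0.00238) and 4.42 ± 1.03 points at 7 days (adjusted p = 0.349), with an interaction of 18.4 ± 2.35 points (adjusted p = 0.00537). DMSO differed by -7.31 ± 1.57 points between days, which did not pass (adjusted p = 0.0753). The call at 4 days was lost without GSK591 library b or c or DMSO library b or c (-15.3 to -12.5 points). Co-treatment gave -19.9 ± 2.57 points at 4 days (adjusted p = 6.2e-05), which held without any 1 library. The calls of GSK591 at 2 days (-15.4 ± 1.87 points, adjusted p = 0.0183) and of MS023 at 7 days (10.6 ± 0.876 points, adjusted p = 0.0247) were each lost without any 1 library (-16.6 to -14.1 points and 9.88 to 11.4 points). The related P4HA1 (exons of 71 bases) had an interaction of 19.1 ± 4.92 points that just missed the threshold (adjusted p = 0.0508). In TPM2, where GSK591 lowered the 5′ exon at both days, the effect was 10.6 ± 2.16 points higher at 7 than at 4 days (adjusted p = 0.000171). Over all members, the GSK591 effect differed between the days for 80 of 4244 MXE (1.89%, against 1.8% of all MXE) and the MS023 effect for 4 of 4382 (0.0913%, against 0.142%).

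**Figure D4:**
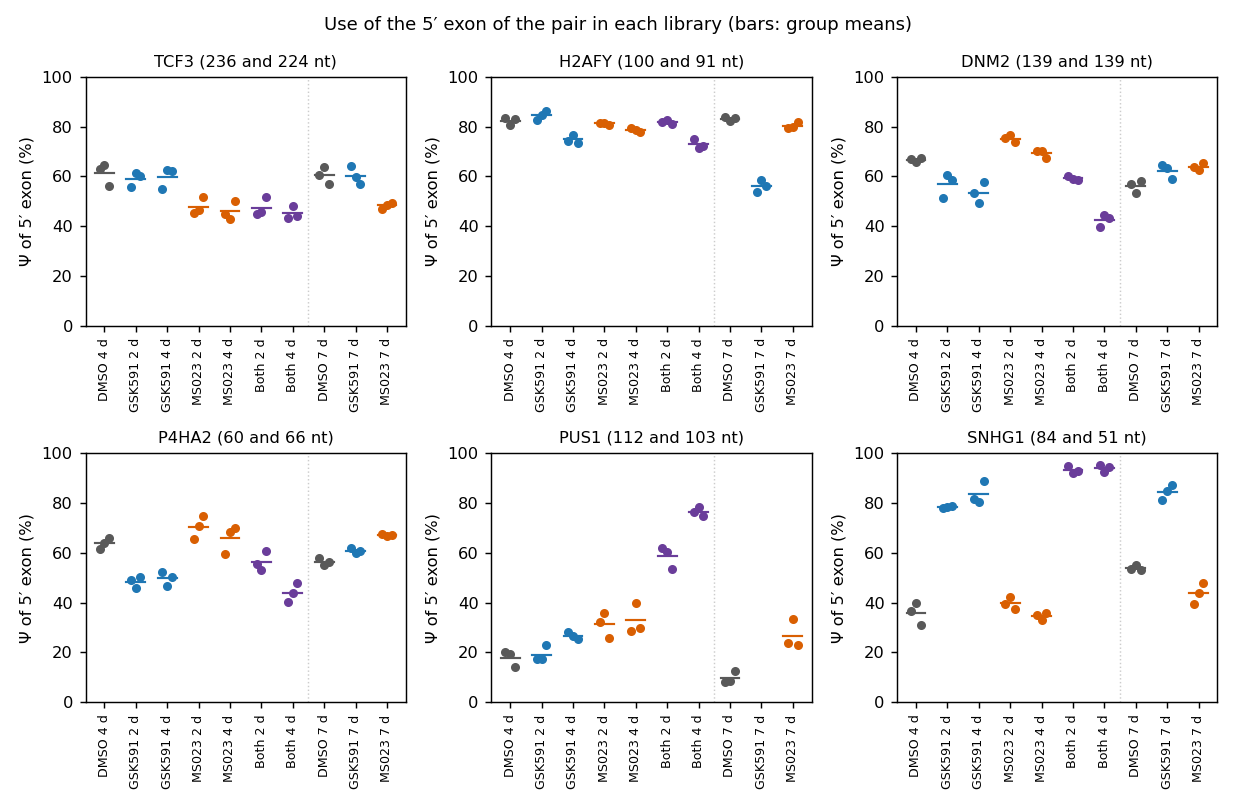
Ψ of the 5′ exon (vertical axis, %) in each library (points) and group mean (bars) for 6 exon pairs, by group (horizontal axis; colours: grey DMSO, blue GSK591, orange MS023, purple both inhibitors; the 7-day groups stand to the right of the dotted line; PUS1 could not be measured with GSK591 at 7 days). H2AFY fell with GSK591 to 53.7 to 58.4% at 7 days, and PUS1 reached 75.0 to 78.3% with both inhibitors at 4 days.

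Outside the textbook list, the largest changes among members with at least 50 reads in each library were mostly in pairs that are annotated together. PUS1, a pseudouridine synthase, was an exception. Its exons of 112 and 103 bases (chr12:132417267-132417378 and chr12:132423718-132423820) never stand together. At 4 days the 5′ exon was at 20.0, 19.1 and 13.9% in DMSO, 28.2, 26.6 and 25.3% with GSK591, 28.7, 39.8 and 29.9% with MS023 and 76.6, 78.3 and 75.0% with both. No treated group overlapped with DMSO. Co-treatment gave 41.0 ± 3.28 and 59.0 ± 2.12 points at 2 and 4 days (adjusted p = 1.38e-09 and 4.58e-12), and both differences from GSK591 alone were called (39.6 ± 3.23 points at 2 days, adjusted p = 0.00946, and adjusted p = 0.000684 at 4 days). MS023 alone gave 13.5 ± 3.42, 15.1 ± 3.99 and 16.9 ± 3.63 points at 2, 4 and 7 days and GSK591 alone 9.0 ± 2.08 points at 4 days. The calls of co-treatment held without any 1 library, and those of single inhibitors were lost without any 1 library (7.11 to 18.7 points).

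FLOT2, which codes for the membrane scaffold flotillin-2, has a pair of exons of 91 bases (chr17:27212875-27212965 and chr17:27211243-27211333; 2 annotated transcripts hold both). At 4 days its 5′ exon was at 2.54, 3.77 and 3.26% in DMSO, 22.1, 21.5 and 24.9% with GSK591, 6.49, 9.69 and 7.14% with MS023 and 33.5, 34.9 and 34.8% with both, with no overlap between these groups. GSK591 gave 19.6 ± 1.1 points (adjusted p = 1.69e-11), MS023 4.58 ± 1.04 points (adjusted p = 0.00308) and co-treatment 31.2 ± 0.569 points (adjusted p = 4.18e-14) at 4 days. Co-treatment was 11.6 ± 1.13 points above GSK591 alone (adjusted p = 0.0214). The call of MS023 was lost without any 1 library (3.62 to 5.23 points).

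RTN4 codes for the reticulon Nogo, and one of its exons is 2400 bases long (chr2:55252222-55254621). Use of the preceding 57-base exon (chr2:55255300-55255356) against the long one was at 81.4, 80.2 and 81.5% in DMSO at 4 days, 76.9, 57.5 and 53.3% with GSK591 and 28.7, 25.4 and 26.6% with both. Co-treatment gave -44.9 ± 6.71 and -54.1 ± 1.05 points at 2 and 4 days (adjusted p = 2.7e-08 and 5.53e-10). GSK591 gave -18.5 ± 7.28 points at 4 days (adjusted p = 0.00525), a call that was lost without any library but GSK591 library a (-25.6 to -13.8 points). At 7 days GSK591 and MS023 gave -18.9 ± 2.36 and -17.9 ± 4.01 points, and these calls were lost without any library but GSK591 library a and without any 1 library (-20.2 to -14.5 points). These exons stand together in 5 annotated transcripts, so coverage of both exons and a choice between them cannot be told apart.

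Of the noncoding members, 2 host genes of small nucleolar RNAs were among those named. At 4 days the 84-base exon of SNHG1 (chr11:62622605-62622688) against the next one of 51 bases (chr11:62622360-62622410) was at 36.7, 39.8 and 31.1% in DMSO, 81.6, 80.3 and 89.0% with GSK591, 34.9, 33.0 and 35.7% with MS023 and 95.3, 92.6 and 94.5% with both. GSK591 gave 42.6 ± 2.55, 47.8 ± 3.71 and 30.5 ± 1.95 points at 2, 4 and 7 days (adjusted p = 1.52e-05, 1.59e-10 and 1.64e-06), and GSK591 exceeded MS023 by 38.7 ± 1.38, 49.1 ± 2.82 and 40.7 ± 2.99 points. The DMSO libraries of 7 days were at 53.4, 55.3 and 53.0%, above those of 4 days (18.0 ± 2.64 points, adjusted p = 0.0102). In SNHG5 the exon pair of 81 and 69 bases fell in all 8 comparisons, by 12.6 points with GSK591, 3.68 points with MS023 and 31.9 points with co-treatment at 4 days (SE 1.03, 0.863 and 0.629). Co-treatment was 19.3 points below GSK591 alone (-19.3 ± 0.829 points, adjusted p = 0.00033). The MS023 calls of SNHG5 were lost without any 1 library, with ΔΨ from -4.55 to -2.11 points. A shared coding frame has no meaning for these 2 genes.

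BIN1 and TRIM5 were called with GSK591. BIN1, an amphiphysin that bends membranes, had its 129-base exon against the following 90-base one at 37.7, 46.4 and 52.6% in DMSO at 4 days, 80.8, 70.8 and 82.3% after GSK591 and 57.3, 51.9 and 56.3% after MS023. All 5 annotated transcripts with the 129-base exon also hold the 90-base one, so coverage and choice cannot be told apart here either. GSK591 gave 32.4 ± 5.61 points (adjusted p = 5.31e-07; lost without GSK591 library c, 28.5 to 36.0 points over the libraries left out) and 48.4 ± 1.55 points at 7 days (adjusted p = 6.1e-09, held without any 1 library). DMSO differed by -16.2 ± 4.43 points between 7 and 4 days (adjusted p = 0.037). TRIM5, an antiviral restriction factor, gained 38.5 ± 2.85 points with GSK591 at 4 days (adjusted p = 4.22e-06) and exceeded MS023 by 46.1 ± 4.65 points (adjusted p = 0.00293).

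LUC7L, which belongs to the U1 snRNP, moved in opposite directions. Its exon of 1161 bases against the one of 99 bases was at 18.2, 19.9 and 18.5% in DMSO at 4 days, 44.7, 51.4 and 46.7% after GSK591 and 10.3, 10.3 and 8.25% after MS023. The only annotated transcript with the longer exon also holds the shorter one, so the values need not reflect a choice between them. ΔΨ was 28.7 ± 2.05 and -9.28 ± 0.862 points (adjusted p = 1.3e-10 and 3.86e-05), and the direct difference 38.0 ± 2.1 points (adjusted p = 0.000235). The MS023 call was lost without MS023 library a or b or DMSO library b (-9.64 to -8.6 points). The exons of SEC31A, a coat protein of vesicles that leave the endoplasmic reticulum, also went both ways, with -24.0 ± 3.63 points for GSK591 and 19.6 ± 3.77 points for MS023 at 4 days (adjusted p = 0.00103 and 0.0223; direct difference -43.6 ± 1.32 points, adjusted p = 0.000991). The call of GSK591 was lost without GSK591 library b or c or DMSO library a (-27.6 to -21.8 points), and that of MS023 without any 1 library (16.0 to 21.9 points). With MS023, RAB11FIP3, which acts in endosome recycling, fell by 33.3 points at 4 days (-33.3 ± 2.91 points, adjusted p = 4.89e-06, lost without MS023 library a, -35.1 to -31.1 points) and the ubiquitin ligase DZIP3 by 29.5 points (-29.5 ± 4.13 points, adjusted p = 0.00255, lost without any 1 library, -32.0 to -26.5 points). The exons of DZIP3 stand together in all 4 annotated transcripts that hold either of them.

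Small changes were called in deeply covered members. RPS19, a ribosomal protein gene, was at 99.2, 99.3 and 99.3% in DMSO at 4 days and 98.2, 98.3 and 98.2% with co-treatment, and its -1.01 ± 0.035 points were called (adjusted p = 2.76e-10) on at least 41663 reads per library. RPLP0, which codes for an acidic protein of the ribosomal stalk, rose from 57.0, 54.9 and 57.1% to 73.4, 73.7 and 73.8% (17.3 ± 0.75 points, adjusted p = 4.8e-20). Processed pseudogenes of ribosomal protein genes can share reads with them, so both are uncertain. ACTN4, an actin-bundling alpha-actinin, had called changes against DMSO of at most 1.2 points in the 2 of its exon pairs that never stand together, and SLC25A3, the mitochondrial phosphate carrier, of at most 0.567 points in its mutually exclusive pair.

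Arginine methyltransferases and cofactors were not called against DMSO. Of 13 such genes, 8 had a same-frame MXE, and 0 of 7 to 9 tested pairs were called by the quasi-binomial test in each of the 8 comparisons with DMSO. Of all same-frame pairs tested, 0.993% to 9.13% were called in these comparisons, so 0 calls among so few pairs do not set the genes apart. Limma also called 0, and 0 to 4 pairs had an unadjusted p under 0.05. Between the DMSO groups, 3 of 7 (in CHTOP, PRMT1 and PRMT5) were called, in a comparison where 19.1% of all same-frame pairs were. Of 66 splicing factors, 49 had a member. GSK591 changed 2 of 61 pairs at 2 days, 10 of 59 at 4 days and 6 of 58 at 7 days (3.28%, 16.9% and 10.3%, against 1.78%, 7.21% and 5.1% of all same-frame pairs tested). MS023 changed 2 of 53, 3 of 59 and 3 of 52 (3.77%, 5.08% and 5.77%, against 0.993%, 1.75% and 3.18%), and co-treatment 6 of 75 and 10 of 69 (8.0% and 14.5%, against 7.63% and 9.13%). These pairs were deeper, with a median lowest count of 668 reads after GSK591 for 4 days, against 240. With at least 500 reads in each library, 5.41%, 21.1% and 17.9% were called after GSK591, against 3.55%, 12.4% and 11.1%. At that depth MS023 gave 3.12%, 2.86% and 7.41% (against 2.42%, 3.67% and 7.93%) and co-treatment 11.5% and 15.9% (against 11.9% and 14.6%). Of 42 genes for the cytoskeleton and adhesion, 40 had a member. GSK591 changed 9 of 102 pairs at 2 days, 22 of 109 at 4 days and 15 of 87 at 7 days (8.82%, 20.2% and 17.2%, against the same 1.78%, 7.21% and 5.1%). MS023 changed 4 of 105, 4 of 94 and 9 of 93 (3.81%, 4.26% and 9.68%, against 0.993%, 1.75% and 3.18%), and co-treatment 26 of 106 and 21 of 110 (24.5% and 19.1%, against 7.63% and 9.13%). With at least 500 reads the shares were 16.3%, 24.5% and 28.9% after GSK591, against 3.55%, 12.4% and 11.1% of all same-frame pairs at that depth. They were 7.41%, 8.89% and 13.2% after MS023 (against 2.42%, 3.67% and 7.93%) and 27.5% and 26.9% after co-treatment (against 11.9% and 14.6%). The tropomyosins, ACTN1, ACTN4, CD44 and the dynamins belong to both this list and the textbook list.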

How the data were processed

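Poly(A)-RNA seq of 30 libraries in 10 groups was analysed. According to the submitters' processing notes and the study's methods, reads were trimmed with Trim Galore 0.6.5, aligned with STAR 2.4.2a and passed to rMATS 4.0.2, and the coordinates are those of GRCh37. The deposited tables, 1 for each of 8 comparisons, hold whole-number read counts of junctions and exon bodies for each form and library, joined by commas, with the effective lengths of the forms. The authors' columns of inclusion difference, p-value and FDR were not used. Totals of reads per library are given in the report, and counting error is smallest for pairs with many reads.

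The counts of the form with the exon nearer the 5′ end of the transcript and of the other form were divided by their effective lengths to give Ψ. DMSO counts were identical between tables, so groups of different tables were also compared directly. Each MXE with at least 10 reads in every library was fitted with a quasi-binomial model in R 4.3.3. Its dispersion was moderated with squeezeVar of limma 3.58.1 over all MXE of the comparison and held at 1 or above. P-values of the F test were adjusted by Benjamini-Hochberg over all MXE tested, with a threshold of 0.05. SEs come from the spread of Ψ of the pair itself between libraries, whereas p-values use the moderated dispersion, so a wide SE can stand beside a small p-value. The effect of day was an interaction of treatment and day over 12 libraries, tested on the scale of log odds and described in points of Ψ. The script was tested on simulated data. Exons were matched to GENCODE release 44 lifted to GRCh37, and both exons were aligned globally (match 1, mismatch -1, gap -2). The exon sequences of TCF3 are not reported here.

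Exon pairs were named by 4 rules. These took the 3 largest called changes of each comparison with DMSO and up to 10 pairs called with the same sign in the most comparisons (at least 4), both with at least 50 reads in every library. They also took the 3 largest interactions per inhibitor at the same depth, and the pairs of 42 genes with textbook mutually exclusive exons. A pair was represented by its row with the most reads. The members and lists were chosen with earlier results of these data known. Alternatives were limma on log2 odds with 0.5 added to each count, other read minimums, 1 row per exon pair, the dispersion not held at 1, and each library left out.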

Additional observations from a re-analysis of the deposited data

Results flagged for a closer look

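The effect of an inhibitor differed between 7 and 4 days for the following described pairs, by the interaction test of the quasi-binomial model with adjustment over all MXE tested. The test was made on the scale of log odds, whereas the values are the effect at 7 days minus that at 4 days in percentage points of Ψ. For GSK591 the difference was 18.4 in P4HA2 (adjusted p = 0.00537), 19.4 in DNM2 (0.000924), -19.6 in H2AFY (2.42e-05), 10.6 in TPM2 (0.000171), -9.66 in U2AF1 (0.0107), -4.44 in CALU (0.00154) and 0.655 in ACTN4 (0.0371). It was -4.72 in RPLP0 (0.000856), -17.7 in BCL2L12 (0.00123), 33.0 in FAM98C (0.0108), 42.5 in CLIP1 (0.00537), -19.6 in NUP54 (0.03) and 7.98 in SNHG5 (0.000352). For MS023 it was -20.6 in QSER1 (0.00632), -3.35 in RPLP0 (0.0454), -6.95 in LAPTM4B (0.0454) and -12.7 in BCL2L12 (0.0324).

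In 6 of these genes Ψ also differed between DMSO of 7 and 4 days, by -10.6 ± 1.49 points in DNM2, 5.86 ± 0.908 points in RPLP0, 13.8 ± 0.964 points in BCL2L12, -14.6 ± 1.67 points in CLIP1, -5.23 ± 0.806 points in SNHG5 and 16.1 ± 0.839 points in LAPTM4B. The part of the controls in those interactions was not tested. H2AFY, TPM2, U2AF1, CALU and QSER1 were not called between the DMSO groups (0.827 ± 0.936, -2.45 ± 2.14, 4.61 ± 2.23, 0.167 ± 1.44 and -2.54 ± 2.93 points).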

How the results depend on the processing

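In most comparisons the number of called members was lower with limma and with fewer libraries. With limma on log2 odds, the counts of called members fell for GSK591 against DMSO to 20, 151 and 56 at 2, 4 and 7 days, for MS023 to 14, 9 and 2, and for co-treatment to 221 and 369 at 2 and 4 days. They fell to 4 and 11 for co-treatment against GSK591, 672 between DMSO groups, 6 for the GSK591 interaction and 0 for that of MS023 (284 members at an unadjusted p under 0.05). With 1 row per exon pair, 100 were called for GSK591 at 2 days and 1 for the MS023 interaction, and with at least 20 reads 2 were called in the latter. Between GSK591 and MS023, limma called 85, 253 and 175 at 2, 4 and 7 days, within 1.5 times the reported 113, 315 and 154. With the dispersion not held at 1, co-treatment and GSK591 differed for 69 at 4 days, and the counts of the 8 comparisons with DMSO did not change.

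With 1 library left out, the counts were 7 to 24, 124 to 210 and 48 to 92 for GSK591, 5 to 13, 10 to 25 and 6 to 49 for MS023, and 147 to 322 and 223 to 446 for co-treatment. They were 4 to 51, 119 to 156 and 32 to 50 between GSK591 and MS023, 0 to 7 (460 to 630 at an unadjusted p under 0.05) and 8 to 15 between co-treatment and GSK591, 514 to 847 between DMSO groups, 37 to 119 for the GSK591 interaction and 1 to 17 for that of MS023. Of 247 calls of described pairs against DMSO, 91 held without any 1 library and 78 were lost without each; 155 were lost with limma. No direction of a called value was reversed by any alternative run.

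The planned test with edgeR was not run, because the deposited counts of 3 libraries share a cell. No paired analysis was possible because the columns carry no replicate numbers. FGFR3 had as few as 18 reads in a library, and Ψ of exons that stand together in a transcript is limited as a measure of choice between them.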
